A study of Mus musculus with 20 samples.

Results

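The genes described here are 39 lysosomal genes of the mouse, a list of proteases, other hydrolases, membrane proteins, proton pump subunits and regulators of the lysosome, taken by gene symbol from tables that list 24421 genes. All 39 symbols were found, and all 39 passed the filter on low counts; the lowest count of any of them in any library was 243, for Sgsh. RNA-seq measured them in 20 libraries from bone marrow-derived macrophages (BMDM), which are macrophages grown in culture from bone marrow, here with medium conditioned by L929 cells as a source of the growth factor CSF-1. Cells of the same 5 mice were treated for 48 h under each of 4 conditions, which the labels name LP, LP PIC and LP 3M, and, for the last, LP 3M PIC. Going by the series title, LP was read as the lipoparticle that all 4 groups share, LP PIC and LP 3M as formulations of a single adjuvant, and LP 3M PIC as the dual formulation. The labels do not spell out PIC and 3M and do not give the amounts of each or the strain, age and sex of the mice; a condition without particles was not analysed here. LP was therefore the reference, and the comparisons ask how each formulation, and the dual one against the single ones, differed in the level of these transcripts.

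Lysosomes are acidic organelles in which macrophages break down what they take up. Soluble proteases of the cathepsin family, glycosidases, sulfatases and lipid hydrolases do the digestion, a proton pump (the V-ATPase) keeps the lumen acidic, and membrane glycoproteins such as LAMP1 and LAMP2 line the organelle. Many of the genes are known targets of the transcription factor TFEB and its relatives, which bind a palindromic E-box, CACGTG, often flanked by T and A, in promoters of lysosomal genes. In macrophages and other antigen-presenting cells, cathepsins also trim antigens for presentation. All values here are of RNA, and neither protein nor enzyme activity was measured.

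The promoters below show where that E-box lies in some of the members, which were chosen after the values of the genes were seen. Each line gives the 150 bases before the annotated transcription start, 5′ to 3′ on the strand of the gene, from RefSeq on GRCm38.p6. Capitals mark CACGTG, with a T before it or an A after it where present. Sgsh had the greatest fall of all members, Ctsd was the most abundant, Lamp1 and Mcoln1 hold several sites, Gaa differed in its response between conditions, and Ctsc and Ctsz had the greatest rises.
Sgsh: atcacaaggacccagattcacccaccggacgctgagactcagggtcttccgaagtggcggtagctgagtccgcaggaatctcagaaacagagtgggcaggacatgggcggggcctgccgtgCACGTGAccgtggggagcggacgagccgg
Ctsd: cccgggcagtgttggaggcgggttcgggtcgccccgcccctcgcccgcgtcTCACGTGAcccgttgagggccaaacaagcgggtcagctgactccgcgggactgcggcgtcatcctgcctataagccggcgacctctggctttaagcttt
Lamp1: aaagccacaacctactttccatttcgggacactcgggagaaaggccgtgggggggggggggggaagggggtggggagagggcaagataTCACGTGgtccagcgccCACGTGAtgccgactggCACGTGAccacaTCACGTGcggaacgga
Mcoln1: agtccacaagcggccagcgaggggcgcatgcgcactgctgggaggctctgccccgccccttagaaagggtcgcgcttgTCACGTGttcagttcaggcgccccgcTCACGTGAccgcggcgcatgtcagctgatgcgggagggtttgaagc
Gaa: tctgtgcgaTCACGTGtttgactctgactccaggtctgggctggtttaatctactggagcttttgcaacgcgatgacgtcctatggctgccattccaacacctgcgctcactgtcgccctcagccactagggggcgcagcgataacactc
Ctsc: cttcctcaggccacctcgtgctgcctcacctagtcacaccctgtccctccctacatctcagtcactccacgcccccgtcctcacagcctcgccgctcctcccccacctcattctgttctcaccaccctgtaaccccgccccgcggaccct
Ctsz: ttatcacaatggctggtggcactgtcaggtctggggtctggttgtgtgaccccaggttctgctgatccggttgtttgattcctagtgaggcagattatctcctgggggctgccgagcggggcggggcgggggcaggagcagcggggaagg
The windows are chr11:119355511-119355660 on the minus strand for Sgsh, chr7:142387828-142387977 on the minus strand for Ctsd, chr8:13159011-13159160 on the plus strand for Lamp1, chr8:3500369-3500518 on the plus strand for Mcoln1, chr11:119267813-119267962 on the plus strand for Gaa, chr7:88277935-88278084 on the plus strand for Ctsc and chr2:174439040-174439189 on the minus strand for Ctsz. Lamp1 holds 4 sites whose first bases lie 61, 45, 28 and 15 bases before the start, and Mcoln1 holds 2, at 71 and 45 bases. Sgsh has 1 at 29 bases, Ctsd 1 at 98 bases and Gaa 1 at 140 bases, and neither Ctsc nor Ctsz has one in these windows.

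Over the 300 bases from 250 before to 50 after the start, searched on both strands, CACGTG was present for 15 of the 35 members found in the promoter table (42.86%), against 8.093% of all 27025 genes of that table and 11.91% of those whose expression was tested here. The longer TCACGTG, which contains CACGTG, was present for 14 of the 35 (40%) against 4.292% of all genes, and TCACGTGA, which contains both, for 7 (20%) against 1.125%. Under LP 3M PIC, 10 of the 15 members with CACGTG were lower than under LP and 2 higher in the test described further on. Of the 20 without it 15 were lower and 3 higher, with 30.6% of all tested genes lower and 31.7% higher. The median log2 fold change was −0.465 with CACGTG and −0.756 without it. Arsb, Lipa, Man2b1 and Atp6v0a1, whose promoters are not shown, were among those lower without it. This is a description with no test. A match is a run of letters and not a measured binding site. The promoters of Ctsb, Ctsh, Asah1 and Npc1 were not used here.

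The tables held 9740528 to 23874805 gene counts per library, with a median of 22751911, and levels are given as CPM, a gene's count scaled to 1 common library total. At these depths 3 counts correspond to 0.126 to 0.308 CPM, far below any member. All 9 macrophage markers examined, among them Csf1r, Adgre1 and Lyz2, were present in every group, with summed levels of 11673 to 19097 CPM under LP, 13876 to 20109 under LP PIC, 21478 to 27139 under LP 3M and 12176 to 17029 under LP 3M PIC. Summed neutrophil markers, 8 of 9 of them in the tables, were at 1.43 to 3.80 CPM under LP, 2.94 to 5.76 under LP PIC, 4.09 to 17.2 under LP 3M and 4.86 to 537 under LP 3M PIC, where S100a8 made up most of the sum and 6 of the 8 had means below 1 CPM. Summed dendritic cell markers, 7 in all, ran from 0 to 0.223 CPM under LP, 1.27 to 7.06 under LP PIC, 0.305 to 0.796 under LP 3M and 6.24 to 46.2 under LP 3M PIC, with Xcr1, Siglech and Cd209a at 0 in the last. Most of that sum under LP 3M PIC was Ccr7, a chemokine receptor, with means of 0.0355 CPM under LP, 2.49 under LP PIC, 0.254 under LP 3M and 24.8 under LP 3M PIC. Summed endothelial markers, mostly Kdr, were at 28.9 to 46.9 CPM under LP, 45.6 to 107 under LP PIC, 17.6 to 34.3 under LP 3M and 34.3 to 154 under LP 3M PIC, fibroblast markers at 14.9 to 132 CPM over all libraries, and red cell markers at 0. The part of these markers in the results was not tested. In libraries made from whole cultures, fewer cells of a type and less RNA per cell cannot be told apart.

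Lysosomal transcripts were a large share of the RNA of these cells, and that share was lowest under the dual formulation. The 39 genes together took 8.67% of all gene counts under LP (7.58 to 9.88% over the 5 mice), 7.72% under LP PIC (7.10 to 8.68%), 6.61% under LP 3M (5.69 to 7.89%) and 4.88% under LP 3M PIC (3.96 to 6.12%). The LP 3M PIC libraries all lay below those of LP and of LP PIC, and LP 3M overlapped with every other group. Most of the sum came from 3 genes, Ctsd, Ctsb and Psap; the other 36 took 3.00% (2.83 to 3.27%), 3.13% (3.01 to 3.21%), 2.51% (2.38 to 2.72%) and 2.17% (1.93 to 2.53%) in the same order of conditions. A share of counts also moves with every other gene in the library.

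**Figure D1:**
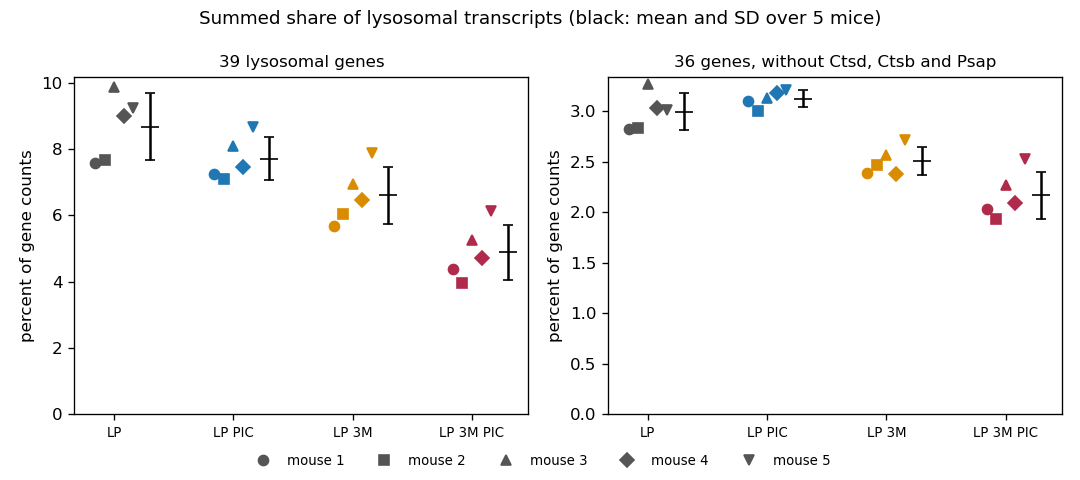
Summed share of gene counts, in percent, of all 39 lysosomal genes (left) and of the 36 without Ctsd, Ctsb and Psap (right) in the 4 conditions. Each symbol is 1 mouse, and black bars give the mean and SD over 5 mice. The share of all 39 lies between 3.96 and 6.12% under LP 3M PIC and between 7.58 and 9.88% under LP.

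Per kilobase of annotated exon, the order under LP was led by Ctsd, the aspartic protease cathepsin D, at 9383 CPM per kb, then Psap, the precursor of the saposins, at 5238, and the cysteine protease cathepsin B, Ctsb, at 3362. Ctsz, Grn and Lamp1 followed at 1388, 1174 and 949.9 CPM per kb, and Arsa, Mcoln1 and Tfeb closed the order at 15.5, 11.7 and 11.2. By their means Ctsd and Psap stayed in front in all 4 conditions. Ctsz stood above Ctsb under LP PIC (3085 against 2697 CPM per kb) and under LP 3M PIC (2559 against 1579.7), without overlap in either. That order depends on the length used, all annotated exon bases of a gene, which were 1441 for Ctsz and 6051 for Ctsb. Without division by length Ctsb was above Ctsz, at 16322 against 4446 CPM under LP PIC and 9559 against 3688 under LP 3M PIC. Under LP 3M PIC the lowest levels were those of Tfeb, Sgsh and Arsb, at 5.69, 4.85 and 4.41 CPM per kb. Over the 5 mice these 3 ranged from 3.01 to 8.34, 3.12 to 7.76 and 2.83 to 6.81 CPM per kb, so that neighbours at the foot of the order did not differ beyond their spread. At the top, the ranges under LP of Ctsd (7274 to 11190.0) and Psap (4244 to 6504) CPM per kb did not overlap. In the other 3 conditions they did, and under LP 3M PIC the range of Psap (1487 to 4028) also took in that of Ctsz (2066 to 2893).

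Most of these lysosomal genes were lower under the dual formulation than under LP, and fewer were changed by either single one. Genes were called at an adjusted p under 0.05 in the edgeR quasi-likelihood test over 12132 genes. Under LP PIC, 10 of the 39 were higher than under LP and 11 lower, a share in each direction close to that of all tested genes, of which 22.7% were called higher and 22.7% lower. Under LP 3M, 4 were higher and 14 lower, with 20.0% of all genes higher and 19.5% lower. Under LP 3M PIC, 6 were higher and 27 lower, with 31.7% of all genes higher and 30.6% lower. The members' median log2 fold change against LP was 0.01 under LP PIC, −0.23 under LP 3M and −0.48 under LP 3M PIC, beside −0.00, −0.01 and 0.02 over all tested genes. The log2 fold change was beyond 1 in size for 2 called members under LP PIC (5.13%), 3 under LP 3M (7.69%) and 11 under LP 3M PIC (28.2%), beside 13.06%, 9.60% and 22.1% of all tested genes, so that the members had no greater share of such folds than all genes under either single formulation. All 3 comparisons share the 5 LP libraries.

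The calls against LP had the same direction in 5 of 5 mice for 18 of 18 members under LP 3M and 33 of 33 under LP 3M PIC, and for 20 of 21 under LP PIC, where Grn was higher in 4 mice. These calls were made from the same libraries, so that the shared direction, here and below, is no separate support for them. It was not counted over all called genes. The fits without 1 mouse, here and below, did not use the pairing of libraries by mouse. Such fits with the mouse as a block were not run. The shares of all tested genes called in fits without 1 mouse were not counted, here or below. A lost call therefore cannot be set against what all genes did. The count of 11 lower members under LP PIC was 7 without mouse 1, 7 without mouse 3 and 3 without mouse 4, though all 11 were lower in 5 of 5 mice and all 11 were among the 12 called with the mouse as a block. The folds of the lost calls moved less than the calls: without mouse 4 the log2 fold change of Lipa went from −0.77 to −0.71, and that of Laptm5, which moved more, from −0.36 to −0.25. Man2b1, Fuca1 and Atp6v0a1 were called without any 1 of the mice. The 4 higher members under LP 3M became 2 without mouse 1 or mouse 2, and Ctsc and Ctsz were called without any 1 of the mice. Under LP 3M PIC, all 6 higher members and 20 of the 27 lower ones were called without any 1 of the mice. Of the 27 lower members, mouse 5 had the smallest fall from its own LP library in 22. Its median log2 change in the 27 was −0.54, against −0.89 to −1.13 in the other mice. Of the 6 higher members it had the smallest rise in 0, and mouse 3 in 3. Under LP 3M mouse 5 had the smallest fall in 11 of the 14 lower members and the smallest rise in 1 of the 4 higher ones. The same was not counted over all tested genes. Without mouse 5, 17 members were lower under LP 3M and 25 under LP 3M PIC.

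The members were also sorted by pattern. The share of all tested genes with each pattern was not counted, and all 3 comparisons share the LP libraries. The counts therefore describe the members alone. Of them, 10 were lower in all 3 formulations: Arsb, Atp6v0a1, Ctsb, Ctsd, Fuca1, Glb1, Laptm5, Lipa, Man2b1 and Sgsh. A further 12 were called lower under LP 3M PIC and under neither single formulation: Arsa, Cd63, Ctsa, Ctsl, Gla, Hexa, Lamp1, Naglu, Npc1, Psap, Scarb2 and Tpp1. With the mouse as a block, Gla, Hexa, Npc1 and Scarb2 of these were also lower under LP 3M and Hexa under LP PIC, where Naglu and Tpp1 were higher. Higher in all 3 were Ctsc, Ctsz and Neu1, and Cln3, Ctsh and Gaa were higher under LP PIC and LP 3M PIC. Asah1, Grn, Mcoln1 and Npc2 were called higher under LP PIC only (with the block, Mcoln1 also under LP 3M PIC), though this does not show that the formulations differed; the direct comparisons are given further on. Lgmn, the asparaginyl endopeptidase legumain, was called in none of the 7 comparisons, with means of 639.8 ± 28.9, 609 ± 75.5, 653 ± 95.0 and 559 ± 47.1 CPM (SD, n = 5) in the 4 conditions, in the order used above.

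**Figure D2:**
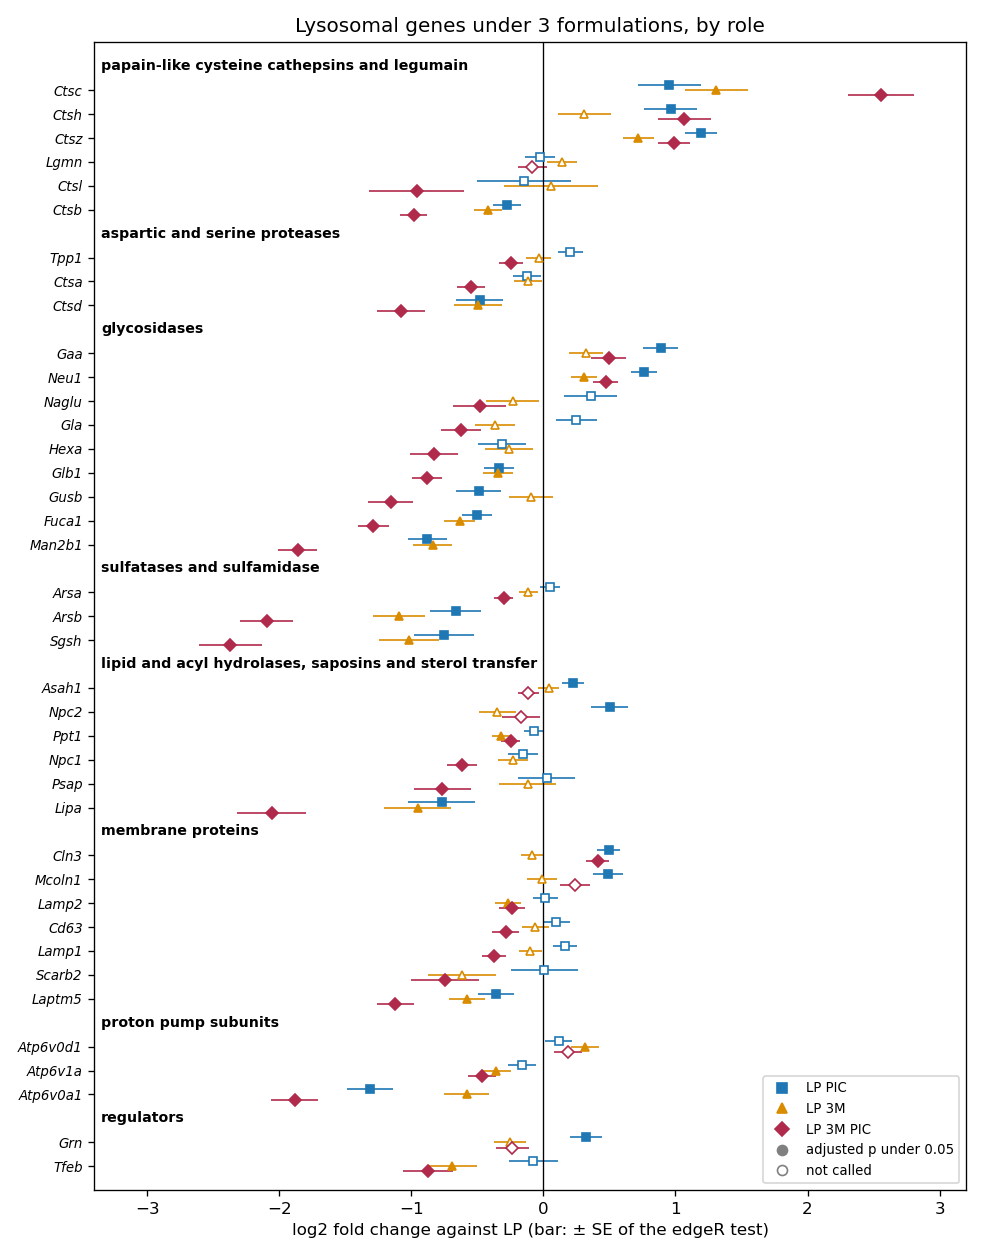
Log2 fold change against LP (x axis) of the 39 genes, grouped by role, under LP PIC (squares), LP 3M (triangles) and LP 3M PIC (diamonds), with the SE of the edgeR test as bars. Filled symbols have an adjusted p under 0.05: 21 under LP PIC, 18 under LP 3M and 33 under LP 3M PIC, of which 27 lie below 0.

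The papain-like cysteine cathepsins went in both directions, and under LP PIC and LP 3M PIC the 3 that rose had the greatest rises of the whole list. Ctsz encodes cathepsin Z, a carboxypeptidase (chr2:174427493-174439039, minus strand in GENCODE on GRCm38). In mice 1 to 5 it stood at 1752, 1712, 2460.4, 2068 and 2013 CPM under LP and at 4273, 4092, 4255, 5145 and 4465 CPM under LP PIC. Under LP 3M it was at 3234, 3042, 3254, 2939.8 and 2826 CPM, and under LP 3M PIC at 3289, 2977, 4169, 3891 and 4115 CPM. All 15 treated libraries lay above all 5 of LP, and LP PIC was higher than LP 3M in every mouse. The log2 fold change against LP was 1.19 ± 0.12 (SE) under LP PIC, 0.72 ± 0.12 under LP 3M and 0.99 ± 0.12 under LP 3M PIC (adjusted p = 2.0e-07, 1.1e-04 and 8.4e-07).

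Ctsc encodes cathepsin C, the dipeptidyl peptidase that activates granule serine proteases (chr7:88278085-88310888, plus strand). In mice 1 to 5 it was at 107, 78.5, 162, 153 and 131 CPM under LP and 251, 197, 252, 262 and 229 CPM under LP PIC. It reached 334, 271, 307, 338 and 203 CPM under LP 3M and 871, 959.7, 479.7, 717 and 408 CPM under LP 3M PIC. No treated library overlapped with LP, the LP 3M PIC libraries lay above all others, and mice 3 and 5 were the lowest of the dual group. The rise against LP was 1.94-fold under LP PIC, 2.48-fold under LP 3M and 5.88-fold under LP 3M PIC (log2 2.56 ± 0.25, adjusted p = 7.1e-08).

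Ctsh encodes the aminopeptidase cathepsin H (chr9:90054152-90076089, plus strand). Its levels in mice 1 to 5 were 158, 134, 284, 252 and 292 CPM under LP and 419.6, 407, 321, 606 and 372 CPM under LP PIC. They were 245, 227, 264, 259.7 and 298 CPM under LP 3M and 458, 401, 361, 482 and 479 CPM under LP 3M PIC. The libraries of both PIC-containing formulations lay above all LP libraries, and those of LP 3M overlapped with LP. Ctsh rose by 0.96 ± 0.20 on the log2 scale under LP PIC (adjusted p = 6.6e-04) and by 1.07 ± 0.20 under LP 3M PIC (adjusted p = 1.4e-04), with 0.31 ± 0.20 under LP 3M (adjusted p = 0.23).

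The 2 endopeptidases of the family went the other way. Ctsb, which was at 20342 ± 1719 CPM (SD, n = 5) under LP, was at 16322 ± 576 under LP PIC, 14144 ± 1659 under LP 3M and 9559 ± 1467 under LP 3M PIC, and no treated library overlapped with LP. Its log2 fold change was −0.28 ± 0.10, −0.42 ± 0.10 and −0.98 ± 0.10, and the smallest of these was not called without mouse 1, 2, 3 or 4 (adjusted p = 0.0769, 0.0583, 0.132 and 0.149). Ctsl, which encodes cathepsin L, was called lower under LP 3M PIC alone, with a log2 fold change of −0.96 ± 0.36 (adjusted p = 0.026), a call not made without mouse 1 or 5 (adjusted p = 0.0938 and 0.0744). Its spread was wide in every group, from 1356 to 3237 CPM under LP and from 609 to 1766 CPM under LP 3M PIC, and the groups overlapped.

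Of the aspartic and serine proteases, all 3 were lower under the dual formulation, with 30.6% of all genes lower. Ctsd was at 22060.3 ± 4319 CPM (SD, n = 5) under LP and 9699.8 ± 1936 under LP 3M PIC, without overlap, a log2 fold change of −1.08 ± 0.18 (adjusted p = 3.7e-05). It was also lower under each single formulation, by −0.48 ± 0.18 and −0.50 ± 0.18, with overlapping groups, and each of these calls was lost without any of mice 1 to 4 (adjusted p from 0.0606 to 0.162 under LP PIC and from 0.0570 to 0.131 under LP 3M). Ctsa, the protective protein of the neuraminidase complex, had a log2 fold change of −0.55 ± 0.11 under LP 3M PIC (adjusted p = 1.7e-04). Tpp1, the tripeptidyl peptidase lost in a form of Batten disease, had −0.24 ± 0.09 (adjusted p = 0.029), a call not made without mouse 1, 2, 3 or 4 (adjusted p = 0.0939, 0.0759, 0.094 and 0.0883). With the mouse as a block it was higher under LP PIC, by 0.20 (adjusted p = 0.039 in that fit).

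The glycosidases cut sugars from glycoproteins and glycolipids. Under LP 3M PIC 7 of the 9 fell and 2 rose, with 30.6% of all genes lower and 31.7% higher. Under LP PIC 4 fell and 2 rose, with 22.7% of all genes in each direction, and under LP 3M 3 fell, 1 rose and 5 were not called, with 19.5% of all genes lower. Man2b1, the lysosomal alpha-mannosidase (chr8:85083270-85098282, plus strand), stood in mice 1 to 5 at 819, 737, 942, 877 and 873 CPM under LP and 438, 398, 554, 340.2 and 516 CPM under LP PIC. It was at 373, 345, 486, 433 and 574 CPM under LP 3M and at 188, 181, 247, 204 and 267 CPM under LP 3M PIC. Neither single formulation overlapped with LP, they overlapped with each other, and the dual libraries lay below all the rest. Its log2 fold change was −0.88 ± 0.15 under LP PIC, −0.84 ± 0.15 under LP 3M and −1.86 ± 0.15 under LP 3M PIC (adjusted p = 7.3e-05, 1.7e-04 and 4.3e-09).

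Fuca1, the alpha-fucosidase, and Glb1, the beta-galactosidase, followed the same order, with log2 fold changes of −1.29 and −0.88 under LP 3M PIC. The Glb1 call under LP PIC was lost without mouse 3 or 4 (adjusted p = 0.0596 and 0.144), and that under LP 3M without mouse 3 or 4 (adjusted p = 0.105 and 0.0833). Gusb, the beta-glucuronidase, was lower under LP PIC (−0.49 ± 0.17, a call not made without mouse 1 or 4 (adjusted p = 0.0758 and 0.145)) and under LP 3M PIC (−1.16 ± 0.17), with −0.09 ± 0.17 under LP 3M (adjusted p = 0.69). Hexa, Gla and Naglu, whose loss causes Tay-Sachs, Fabry and Sanfilippo disease, had log2 fold changes of −0.83, −0.62 and −0.48 under LP 3M PIC, and the Naglu call was lost without mouse 1, 2, 3 or 4 (adjusted p = 0.0846, 0.0547, 0.0982 and 0.15). They were not called under the single formulations, but with the mouse as a block Hexa was lower under both (−0.31 and −0.23, adjusted p = 0.0048 and 0.027 in that fit), Gla was lower under LP 3M (−0.38, adjusted p = 0.011 in that fit) and Naglu was higher under LP PIC (0.38, adjusted p = 0.0038 in that fit).

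Gaa and Neu1 rose. Gaa, the acid alpha-glucosidase that digests glycogen (chr11:119267887-119285454, plus strand), stood in mice 1 to 5 at 164, 188, 233, 203 and 201 CPM under LP and 321, 348, 363, 323 and 429 CPM under LP PIC. It stood at 233, 239, 227, 209.7 and 242 CPM under LP 3M and at 207, 197, 283, 257 and 354 CPM under LP 3M PIC. The LP PIC libraries lay above all of LP and LP 3M, and the dual libraries spread from the level of LP to that of LP PIC, with mouse 5 on top. Its log2 fold change was 0.89 ± 0.13 under LP PIC (adjusted p = 2.1e-05), 0.49 ± 0.13 under LP 3M PIC (adjusted p = 0.0028) and 0.32 ± 0.13 under LP 3M (adjusted p = 0.056, and 0.015 with the mouse as a block). Neu1, the sialidase, rose by 0.76 ± 0.10, 0.31 ± 0.10 and 0.47 ± 0.10 under LP PIC, then LP 3M, then LP 3M PIC, and the middle one of these was lost without mouse 1 or 2 (adjusted p = 0.0669 and 0.0792).

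Among the enzymes that remove sulfate, Sgsh and Arsb showed the greatest falls of the list under LP 3M PIC. Sgsh, the sulfamidase lost in Sanfilippo syndrome type A (chr11:119343425-119355536, minus strand), was in mice 1 to 5 at 92.0, 123, 118, 117 and 148 CPM under LP and 66.7, 61.9, 70.4, 60.2 and 85.4 CPM under LP PIC. It was at 47.0, 47.6, 44.1, 40.2 and 95.4 CPM under LP 3M and at 13.8, 22.2, 19.4, 17.4 and 34.3 CPM under LP 3M PIC. The dual libraries lay below all others, and mouse 5 was the highest of its group in every condition; under LP 3M it reached into the range of LP. Sgsh fell 5.17-fold under LP 3M PIC (log2 −2.37 ± 0.24, adjusted p = 1.0e-07), and its log2 fold change was −0.75 ± 0.23 under LP PIC and −1.02 ± 0.23 under LP 3M. The LP PIC call was lost without mouse 2 or 4 (adjusted p = 0.0505 and 0.0502). In the annotation, 21.64% of the exon bases of Sgsh are shared with Card14 on the other strand, whose mean was 0.433 CPM.

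Arsb, the arylsulfatase that acts on dermatan and chondroitin sulfate (chr13:93771630-93943016, plus strand), was in mice 1 to 5 at 130.0, 146, 108, 123 and 106 CPM under LP and 78.1, 81.5, 83.0, 52.0 and 80.8 CPM under LP PIC. It was at 34.3, 45.9, 55.7, 59.1 and 71.8 CPM under LP 3M and 22.3, 17.1, 28.6, 23.9 and 41.1 CPM under LP 3M PIC. No treated library overlapped with LP, and mouse 4 stood apart as the lowest of LP PIC. The log2 fold change was −0.66 ± 0.19, −1.09 ± 0.20 and −2.10 ± 0.20 under LP PIC, then LP 3M, then LP 3M PIC (adjusted p = 0.0091, 2.5e-04 and 6.4e-08), and the first was lost without mouse 4 (adjusted p = 0.0687). The annotated antisense gene Gm26527, which was not in the count tables, shares 32.27% of its exon bases. Arsa, the sulfatase of sulfatide, changed by less, with −0.30 ± 0.07 under LP 3M PIC (adjusted p = 0.0014).

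**Figure D3:**
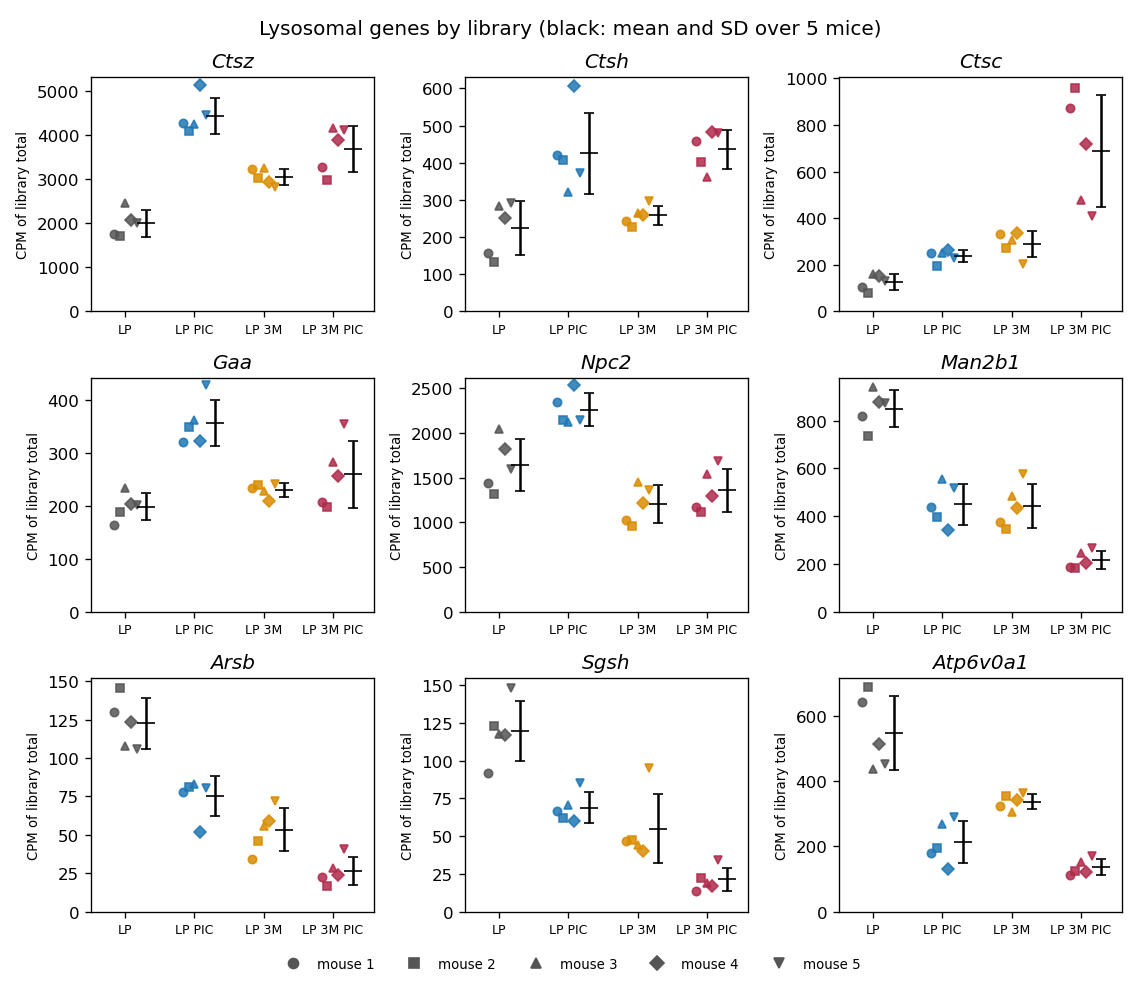
Levels, in CPM of the library total, of 9 lysosomal genes in the 4 conditions, with 1 symbol per mouse and black bars for the mean and SD over 5 mice. Ctsc ends at 408 to 959.7 CPM and Sgsh at 13.8 to 34.3 CPM under LP 3M PIC, and Npc2 is highest under LP PIC, at 2120.0 to 2542 CPM.

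Among the genes of lipid and sterol handling, Lipa, the acid lipase that frees cholesterol from its esters, fell most. It was at 2306 ± 212 CPM (SD, n = 5) under LP, 1312 ± 156 under LP PIC, 1110.2 ± 474 under LP 3M and 515 ± 224 under LP 3M PIC, and no treated group overlapped with LP. Its log2 fold change was −0.77 ± 0.25, −0.95 ± 0.25 and −2.06 ± 0.26, and the LP PIC call was lost without mouse 4 (adjusted p = 0.0925). Psap and Npc1, the membrane protein that moves cholesterol out of the lysosome, had log2 fold changes of −0.77 and −0.62 under LP 3M PIC. Neither was called under a single formulation, and with the mouse as a block Npc1 was lower under LP 3M (−0.24, adjusted p = 0.021 in that fit). Ppt1, the palmitoyl-protein thioesterase, had −0.32 under LP 3M and −0.25 under LP 3M PIC, and the latter was lost without mouse 3 (adjusted p = 0.0544).

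Npc2, the soluble sterol carrier that works with Npc1 (chr12:84754562-84773152, minus strand), went up where PIC was given alone. In mice 1 to 5 it was at 1438, 1315, 2047, 1817 and 1593 CPM under LP and 2351, 2152, 2120.0, 2542 and 2144 CPM under LP PIC. It was at 1023, 955, 1452, 1213 and 1367 CPM under LP 3M and at 1171, 1112, 1536, 1298 and 1682 CPM under LP 3M PIC. All LP PIC libraries lay above all of the other 3 groups, which overlapped with each other. The log2 fold change was 0.50 ± 0.14 under LP PIC (adjusted p = 0.0077), a call not made without mouse 1 (adjusted p = 0.0524), with −0.35 ± 0.14 under LP 3M (adjusted p = 0.06, and 0.013 with the mouse as a block) and −0.17 ± 0.14 under LP 3M PIC (adjusted p = 0.31). Asah1, the acid ceramidase, was 0.23 ± 0.08 higher under LP PIC on the log2 scale, a call not made without mouse 1, 2, 3 or 4 (adjusted p = 0.136, 0.0627, 0.068 and 0.0745).

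Of the 7 membrane proteins, 2 rose and 1 fell under LP PIC, with 22.7% of all genes called in each direction. None rose and 2 fell under LP 3M, with 20.0% of all genes higher and 19.5% lower. Under LP 3M PIC 1 rose and 5 fell, with 31.7% of all genes higher and 30.6% lower. Differences of these counts from the shares of all genes were not tested. Laptm5, a lysosomal protein of blood cells, had the greatest fall, −1.12 ± 0.14 on the log2 scale under LP 3M PIC, with −0.36 under LP PIC and −0.58 under LP 3M; the LP PIC call was lost without mouse 1, 3 or 4 (adjusted p = 0.0895, 0.0728 and 0.251). The structural glycoproteins moved by less: Lamp1 had a log2 fold change of −0.38 and Lamp2 of −0.24 under LP 3M PIC, and the Lamp2 call was lost without mouse 2, 3, 4 or 5 (adjusted p = 0.102, 0.0956, 0.143 and 0.0754). Cd63, a tetraspanin, and Scarb2, the sorting receptor of glucocerebrosidase, had −0.29 and −0.74, calls lost without mouse 1, 2 or 4 (adjusted p = 0.061, 0.106 and 0.0608) and without mouse 4 (adjusted p = 0.0731). With the mouse as a block Scarb2 was also lower under LP 3M, by a log2 fold change of −0.63 (adjusted p = 1.7e-05 in that fit). Cln3, the membrane protein of juvenile Batten disease, rose by 0.49 ± 0.09 under LP PIC and 0.41 ± 0.09 under LP 3M PIC. Mcoln1, the lysosomal calcium channel, rose by 0.49 ± 0.11 under LP PIC, with 0.24 ± 0.11 under LP 3M PIC (adjusted p = 0.072, and 0.025 with the mouse as a block). Cln3 shares 7.646% of its exon bases with Apobr on the other strand, whose mean was 183 CPM.

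The proton pump subunits did not move together. Atp6v0a1 encodes the membrane-embedded a1 subunit (chr11:101009452-101063719, plus strand). In mice 1 to 5 it was at 642, 688, 437, 514 and 453 CPM under LP and 181, 197, 268, 131 and 289.8 CPM under LP PIC. It was at 324, 354, 305, 341 and 364 CPM under LP 3M and at 113, 126, 154, 122 and 172 CPM under LP 3M PIC. LP stood above every treated library, LP 3M above every PIC-containing one, and LP PIC overlapped with LP 3M PIC. It fell 2.48-fold under LP PIC (log2 −1.31 ± 0.17, adjusted p = 6.5e-06) and 3.69-fold under LP 3M PIC (adjusted p = 3.7e-08). Under LP 3M the log2 fold change was −0.58 ± 0.17, a call not made without mouse 1 or 2 (adjusted p = 0.0649 and 0.0629).

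Atp6v1a, the catalytic subunit in the cytosolic ring, fell by less, with −0.47 ± 0.11 under LP 3M PIC and −0.36 ± 0.11 under LP 3M, and the second was lost without mouse 1 (adjusted p = 0.0729). Atp6v0d1 was 0.31 ± 0.10 higher on the log2 scale under LP 3M, a call not made without mouse 1, 2 or 4 (adjusted p = 0.071, 0.0567 and 0.0683), and had 0.19 ± 0.10 under LP 3M PIC (adjusted p = 0.13, and 0.031 with the mouse as a block).

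Of the 2 regulators, Tfeb was at 63.3 ± 5.22 CPM (SD, n = 5) under LP, 58.3 ± 5.05 under LP PIC, 36.4 ± 7.3 under LP 3M and 32.2 ± 11.8 under LP 3M PIC. The LP libraries lay above all of LP 3M and LP 3M PIC and overlapped with LP PIC. Tfeb had a log2 fold change of −0.69 ± 0.19 under LP 3M (adjusted p = 0.0065) and of −0.87 ± 0.19 under LP 3M PIC (adjusted p = 5.1e-04). Grn, the progranulin gene, was 0.32 ± 0.12 higher under LP PIC, a call not made without mouse 1, 2, 4 or 5 (adjusted p = 0.186, 0.0718, 0.12 and 0.0914).

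Set against the single formulations, the dual one had mostly lower levels. LP 3M PIC against LP PIC had 1 member higher, Ctsc, and 30 lower, with 23.1% of all genes higher and 21.4% lower. LP 3M PIC against LP 3M had 3 higher, Ctsc, Ctsh and Cln3, and 18 lower, with 20.5% of all genes higher and 21.0% lower; with the mouse as a block 5 were higher, Ctsz and Mcoln1 being added. LP 3M against LP PIC had 1 higher, Atp6v0a1, and 15 lower, with 24.4% of all genes higher and 22.7% lower; with the mouse as a block 3 were higher, Atp6v0d1 and Gusb being added, and without mouse 3 there were 2. The members' median log2 differences were −0.54, −0.23 and −0.20, beside 0.00, 0.01 and −0.01 over all genes. Of these calls, 30 of 31, 20 of 21 and 15 of 16 went the same way in 5 of 5 mice, the exceptions being Lamp2, Arsa and Lamp2. Without any 1 of the mice, 24 of the 30, 12 of the 18 and 10 of the 15 lower members were called. With the mouse as a block, 32 members were lower under LP 3M PIC against LP PIC, and 22 against LP 3M. Under LP 3M against LP PIC, 18 were lower in that fit. The shares of all genes are those of the fit without the block. These comparisons take the amounts of each adjuvant to be equal in the formulations that hold it.

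Between the single formulations, the greatest differences were those of Npc2 and Atp6v0a1. Npc2 was lower under LP 3M than under LP PIC by a log2 difference of −0.85 ± 0.14 (adjusted p = 1.0e-04), without overlap. Atp6v0a1 was 0.73 ± 0.17 higher (adjusted p = 0.002), in 5 of 5 mice. Gla stood at 259 ± 44.8 CPM (SD, n = 5) under LP 3M and 415 ± 21.7 under LP PIC, without overlap, a log2 difference of −0.62 ± 0.15 (adjusted p = 0.003), and Naglu had −0.59 ± 0.20, a call not made without mouse 4 (adjusted p = 0.09). Cln3 (−0.58), Grn (−0.57), Gaa (−0.57), Mcoln1 (−0.50), Ctsz (−0.47) and Neu1 (−0.46) were lower as well, and so was Ctsh (−0.65 ± 0.20, a call not made without mouse 4 (adjusted p = 0.0847)). Tfeb was also lower under LP 3M than under LP PIC, with a log2 difference of −0.62 ± 0.19 (adjusted p = 0.011).

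The interaction asks whether PIC changed a gene by the same log2 amount with 3M as without it. The change from LP 3M to LP 3M PIC was set against the change from LP to LP PIC, as the first minus the other on the log2 scale, so that a negative value means that PIC raised the gene less, or lowered it more, in the presence of 3M. No member was called higher and 5 were called lower, with 3.82% of all genes higher and 4.62% lower. With the mouse as a block 12 were lower, Ctsl, Gla, Gusb, Naglu, Psap, Sgsh and Tpp1 being added to the 5. The share of all genes in that fit was not counted. The members' median was −0.26, beside 0.00 over all genes.

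Ctsz had the greatest interaction, −0.92 ± 0.17 (adjusted p = 0.0028): PIC added 1.19 ± 0.12 to it without 3M and 0.27 ± 0.12 with 3M. For Gaa the interaction was −0.72 ± 0.18 (adjusted p = 0.021), from 0.89 without 3M and 0.17 with it. Neu1 had −0.60 ± 0.14 (adjusted p = 0.012), from 0.76 and 0.16. For Lamp1 it was −0.44 ± 0.13 (adjusted p = 0.038) and for Asah1 −0.38 ± 0.11 (adjusted p = 0.047). None of the 5 was called in all fits that left out 1 mouse: 0 members were lower without mouse 1, 1 without mouse 2, 3 without mouse 3, 1 without mouse 4 and 7 without mouse 5. Those fits had no block for the mouse, and all 5 were called in the block fit of all mice. Ctsz was lost without mouse 1 (adjusted p = 0.0546), Gaa without mouse 1, 2 or 4 (adjusted p = 0.14, 0.119 and 0.0816), and Neu1 without mouse 1, 2 or 4 (adjusted p = 0.105, 0.0983 and 0.0665). In contrast, Man2b1, Ctsd, Fuca1 and Atp6v0a1 had interactions of −0.14 ± 0.21, −0.10 ± 0.25, −0.15 ± 0.16 and 0.01 ± 0.24, none of them called (adjusted p = 0.72, 0.85, 0.63 and 0.99), which does not show that they were free of one.

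**Figure D4:**
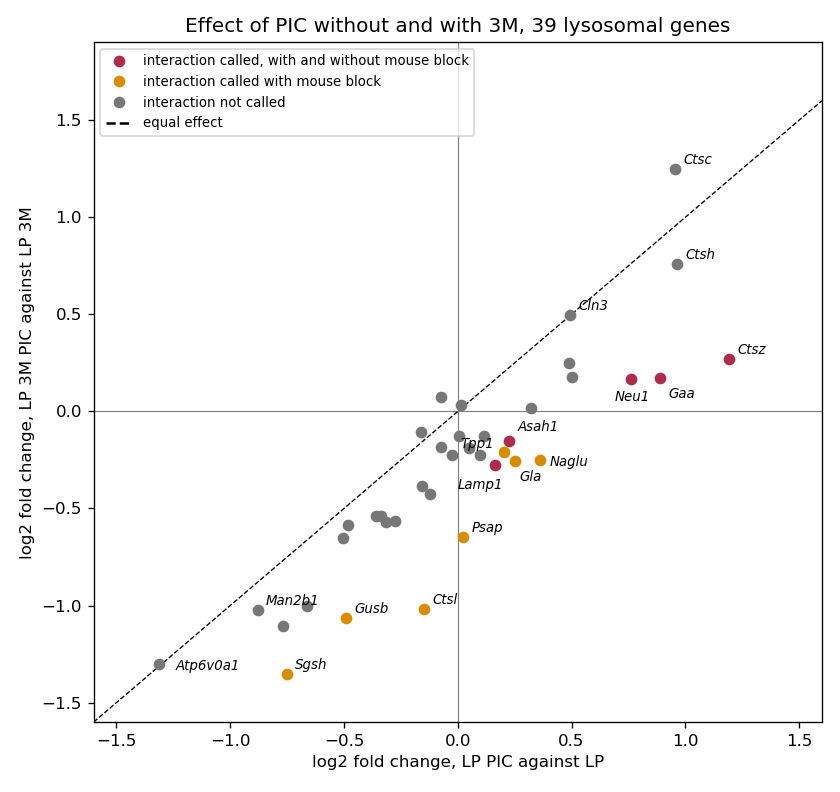
Log2 fold change of the 39 genes between LP PIC and LP (x axis) and between LP 3M PIC and LP 3M (y axis), with a dashed line where both are equal. Red points are the 5 members called in the interaction, orange points the 7 added with the mouse as a block; Ctsz lies at 1.19 and 0.27 and Atp6v0a1 on the line at −1.31 and −1.30.

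Of 100 other lysosomal genes, listed with earlier results of these data known, 96 were tested. Under LP PIC 39 (40.6%) were higher and 13 (13.5%) lower than under LP, with 22.7% of all genes in each direction. Under LP 3M 21 (21.9%) were higher and 28 (29.2%) lower, with 20.0% and 19.5% of all genes. Under LP 3M PIC 27 (28.1%) were higher and 41 (42.7%) lower, with 31.7% and 30.6% of all genes. The shares that were higher under LP 3M and LP 3M PIC were near those of all genes. The interaction had 0 higher and 12 (12.5%) lower, with 3.82% and 4.62% of all genes. With the mouse as a block 27 were lower, and the share of all genes in that fit was not counted. The count of lower genes under LP PIC was 8 without mouse 4, that under LP 3M was 17, 18 and 17 without mice 1, 3 and 4, and that of the interaction was 2, 2, 3 and 22 without mice 1, 2, 4 and 5. Their median log2 fold change was 0.22, −0.05 and −0.15 against LP, and −0.28 for the interaction.

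The rises in that list were led by Acp5, the tartrate-resistant acid phosphatase, at 14.9 ± 2.59 CPM (SD, n = 5) under LP and 185 ± 37.9 under LP 3M PIC, a log2 fold change of 3.76 ± 0.40 (adjusted p = 2.0e-07). Tpcn1, a lysosomal cation channel, had log2 fold changes of −1.58 ± 0.12, −0.90 ± 0.12 and −2.49 ± 0.13 under LP PIC, then LP 3M, then LP 3M PIC. Atp6v0d2, another form of the pump subunit d, had −2.65 ± 0.44 under LP 3M PIC and ranged from 108 to 353 CPM under LP. The aspartic proteases Napsa and Ctse had −1.79 ± 0.26 and −3.67 ± 0.51, and Ctse was at 4.81 ± 2.13 CPM under LP and 0.352 ± 0.0918 CPM under LP 3M PIC. Rnaset2b rose by 1.66 ± 0.23 under LP 3M PIC, a value made uncertain by its near-identical copy Rnaset2a, to which no reads were assigned.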

How the data were processed

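The deposited tables hold whole-number read counts per gene symbol, which the authors had not normalised, 1 table per library of poly(A)-enriched stranded RNA-seq. Tools named in the submitters' processing notes, with build GRCm38, are STAR 2.7.11b, HTSeq 0.13.5, FastQC 0.11.1 and DESeq2 1.44.0. How HTSeq treated strand, and with which annotation, is not given in the sources used here. Whether reads of overlapping genes on opposite strands were told apart is therefore not known. The entries for reads outside genes (5.94 to 8.58%) and shared between genes (1.14 to 1.90%) stayed out of library sizes and tests.

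The analysis used edgeR 4.0.16 (R 4.3.3) and Python 3.11.15. Genes kept by filterByExpr (minimum count 10, minimum total 15) numbered 12132 and held 99.969% of counts. The quasi-likelihood F-test, two-sided, used TMM scaling (factors 0.945 to 1.07), 1 mean per group over all 20 libraries and Benjamini-Hochberg adjustment over all tested genes; the script was tested on simulated data. Fold changes and their SE come from that fit, and printed CPM from library totals. A block for the mouse, DESeq2 1.42.0, other scalings and filters, fits of only the groups compared and fits without each mouse were alternatives. Only the first of these used the pairing by mouse, and the main fit did not. Libraries with the same mouse identifier in the labels come from the same animal; their deviations from group means correlated at 0.137 to 0.541 (30 pairs), against a median of −0.152 for other pairs (120). No 2 libraries were duplicates: the lowest chi-squared per degree of freedom over 190 pairs was 7.43.

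The members and lists were chosen with earlier results of these data known. Values of every library are printed for members among the 2 greatest rises or falls in the comparisons against LP, between the single formulations or in the interaction, and other lysosomal genes are named where among the 2 greatest rises or falls against LP, of which 1 gene is not reported here. Positions are from GENCODE M21 and promoters from RefSeq, where 35 of the 39 symbols matched. Protein sequences were not used here.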

Additional observations from a re-analysis of the deposited data

Results flagged for a closer look

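In 2 of 36 groups of 5 libraries examined (9 genes in 4 conditions), 1 library lay far from the rest by a gap test at the 95% level, which chance meets in about 1 of 20 groups. Arsb was at 52.0 CPM in mouse 4 under LP PIC, below the 78.1 to 83.0 CPM of the other mice; its log2 fold change there was −0.66 with and −0.55 without that mouse (edgeR adjusted p = 0.0687 without it, by the fit across all genes). Sgsh was at 95.4 CPM in mouse 5 under LP 3M, above the 40.2 to 47.6 CPM of the others. Its log2 fold change there was −1.02 with and −1.22 without mouse 5.

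In 5 genes the effect of PIC differed with and without 3M by the interaction test of edgeR: the log2 difference was −0.92 for Ctsz, −0.60 for Neu1, −0.72 for Gaa, −0.38 for Asah1 and −0.44 for Lamp1. These values rest on equal amounts of each adjuvant in the formulations, which the sources used here do not give. Each call was lost without at least 1 of the mice, in fits with no block for the mouse.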

How the results depend on the processing

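Direction and call were compared gene by gene under 8 alternatives and without each mouse in turn. This covered the members and those other lysosomal genes whose fold changes are given here, and none of their called directions was reversed. For the rest of the other lysosomal genes only the numbers higher and lower were compared. The numbers of members higher and lower under LP 3M PIC against LP moved by no more than 1.5 times in any of these. Counts that moved more are as follows, and the cause was not tested. Members higher under LP 3M against LP were 2 with library totals and 2 with upper quartile scaling, against 4. Members higher under LP 3M PIC against LP 3M were 5 with the mouse as replicate block, and those higher under LP 3M against LP PIC were 3 with the block and 2 in DESeq2. Members lower in the interaction were 12 with the block, 3 with library totals and 3 with no filter on low counts. Other lysosomal genes higher under LP 3M against LP were 13 with library totals, and in the interaction 1 was higher and 27 lower with the block. The block ended no call among the genes compared gene by gene, and it changed no other count of members or other lysosomal genes by over 1.5 times.

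Without 1 mouse, the members higher and lower ranged from 7 to 9 and 3 to 11 under LP PIC against LP, 2 to 4 and 10 to 17 under LP 3M, and 6 to 7 and 22 to 25 under LP 3M PIC. They ranged from 1 to 1 and 24 to 30 under LP 3M PIC against LP PIC, 3 to 4 and 13 to 21 against LP 3M, 1 to 2 and 10 to 19 under LP 3M against LP PIC, and 0 to 0 and 0 to 7 in the interaction. Other lysosomal genes ranged from 30 to 38 higher and 8 to 13 lower under LP PIC, 15 to 21 and 17 to 28 under LP 3M, 24 to 28 and 33 to 44 under LP 3M PIC, and 0 to 1 and 2 to 22 in the interaction. The shares of all tested genes in these fits were not counted.

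Library totals moved the median of all genes under LP 3M against LP from −0.01 to −0.12, and the members' median from −0.23 to −0.34. The share of calls that were higher then went from 50.56 to 32.1% for LP 3M against LP (38.13% with upper quartile scaling), from 50.85 to 40.26% for LP 3M PIC against LP, from 51.97 to 40.28% against LP PIC (40.17% with upper quartile scaling), from 51.8 to 41.56% for LP 3M against LP PIC and from 45.26 to 55.71% in the interaction. Counting error was small for members, whose lowest count was 243, so that the spread between 5 mice sets the precision. The floors of 3 counts cover counting error only, and the printed SD and SE include the spread between mice.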

Other observations

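The other lysosomal genes are given here by kind, and differences between kinds were not tested. Of all genes, 22.7% were called in each direction under LP PIC, and 31.7% higher and 30.6% lower under LP 3M PIC. Of 26 tested membrane proteins and transporters, 13 were higher and 3 lower under LP PIC, against 7 higher and 11 lower under LP 3M PIC. Of 26 hydrolases and activators, 10 were higher and 4 lower under LP PIC, and 9 higher and 10 lower under LP 3M PIC. Of 11 tested proteases and protease inhibitors, 3 were higher and 3 lower under LP PIC, and 1 higher and 8 lower under LP 3M PIC. Of 14 other pump subunits, 7 were higher and 1 lower under LP PIC, and 5 higher and 4 lower under LP 3M PIC. Of 13 transcription factors and nutrient-sensing genes, 5 were higher and 1 lower under LP PIC, and 4 higher and 4 lower under LP 3M PIC, the latter close to the shares of all genes. Of 6 sorting genes, 1 was higher and 1 lower under LP PIC, and 1 higher and 4 lower under LP 3M PIC. Near the shares of all genes were also the counts of pump subunits and of hydrolases and activators under LP 3M PIC. Under LP PIC those of proteases and inhibitors and of sorting genes were near them too.

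Some genes are named here after their values were seen. Mitf, a relative of Tfeb, rose by 0.53 ± 0.12, 0.43 ± 0.12 and 0.62 ± 0.12 on the log2 scale against LP under LP PIC, under LP 3M and under LP 3M PIC (adjusted p = 0.0015, 0.0082 and 1.9e-04), in 5 of 5 mice each; with library totals the value under LP 3M was 0.32 (adjusted p = 0.0509). Tfe3, another relative, had 0.31 ± 0.08 under LP 3M PIC (adjusted p = 0.002), while Tfeb had −0.87 ± 0.19. Slc11a1, the metal transporter NRAMP1, rose by 0.80 ± 0.07, 1.28 ± 0.07 and 1.62 ± 0.07, and Slc15a3, a peptide transporter, by 0.48 ± 0.16, 1.25 ± 0.16 and 1.59 ± 0.17; the LP PIC call of Slc15a3 was lost without mouse 1, 2 or 4 (adjusted p = 0.0879, 0.0624 and 0.0836). M6pr, a receptor that sorts enzymes to the lysosome, rose by 0.98 ± 0.08 under LP 3M PIC (adjusted p = 8.6e-09). Ctss, the cathepsin known for trimming the invariant chain, had −0.81 ± 0.14 under LP 3M PIC (adjusted p = 4.3e-05) and 0.23 ± 0.14 under LP PIC (adjusted p = 0.18).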
